A study of Saccharomyces cerevisiae and Saccharomyces mikatae and Saccharomyces paradoxus with 13 samples.

Results

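Haploid a cells of Saccharomyces cerevisiae were exposed to alpha factor, the peptide pheromone released by alpha cells, and their RNA was compared with that of cells not given the pheromone on 3 arrays of the 13 in the series. The arrays were chosen by their sample titles, which name S. cerevisiae, alpha factor and 60 min, so no measured value entered the choice. The cells were strain BY4741, a wild type haploid, grown to log phase in YPD at 30 °C and treated with 6 µM alpha factor for 60 min. BY4741 carries deletions of HIS3, LEU2, MET17 and URA3 in treated and untreated cells alike. The remaining arrays held a 90 min mating on filters between BY4741 (a) and BY4742 (alpha), both wild type haploids, set against both strains incubated apart and pooled before RNA extraction (3 arrays). They also held a cells derived from S. paradoxus CBS432 with and without alpha factor (3 arrays) and a cells derived from S. mikatae IFO 1815 with and without alpha factor (4 arrays). All 13 arrays carried S. cerevisiae probes, and the arrays of a species are called biological replicates in the series design.

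Alpha factor binds a receptor on a cells and frees the beta and gamma subunits of a G protein, which start a kinase cascade that ends in the MAP kinases Fus3 and Kss1. These release the transcription factor Ste12 from its inhibitors, and Ste12 switches on genes for adhesion, cell fusion and nuclear fusion. At the same time Far1 blocks the G1 cyclin kinase, so that the cell stops in G1 and grows a projection towards its partner.

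Every value below is a log2 ratio of treated over untreated cells, so that 1 is a doubling and −1 a halving, and it carries no information on the level of one gene against another. The direction is likely and not certain, since the channel descriptions put the treated sample in the Cy5 channel while the text on labelling puts it in Cy3. It rests on the order of the channels and on the rise of textbook pheromone targets, which therefore gives no separate evidence of direction. With the sign turned, each rise given here becomes a fall. A gene was called when limma's moderated test of its mean against 0 had a Benjamini-Hochberg adjusted p under 0.05 over all ORFs with at least 2 values. The p-values rest on the spread within each group over all 13 arrays of the series, and not on the 3 alpha factor arrays alone. They cover variation of the untreated sample only if each array carried a separate one.

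Values were present for 5964, 5678 and 5715 of 6132 ORFs on replicates 1, 2 and 3, and 5568 ORFs had a value on all 3. The arrays correlated at r = 0.741 to 0.855 across these ORFs, which are not independent of each other, and the median SD of an ORF was 0.123. Of 5789 ORFs tested, 1946 (33.6%) were called, 946 (16.3%) higher and 1000 (17.3%) lower, and the median of all ORFs tested was −0.0018. Most of these changes were small, with a median size of 0.42 among called ORFs. Of these calls, 422 of the higher and 457 of the lower ORFs were kept whichever array was left out. The total was 1126 without replicate 3, 1384 without replicate 1 and 1410 without replicate 2. Leaving out an array also weakens the test, so a lost call need not mean that the arrays disagreed. Changes of at least 2-fold were called for 140 ORFs (2.42%), of which 84 (1.45%) rose and 56 (0.967%) fell. Of those, 78 of the 84 and 49 of the 56 kept their call with each array left out. The response was lopsided at the top: 23 ORFs rose at least 4-fold against 8 that fell as far, and 12 rose at least 8-fold whereas none fell 8-fold.

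**Figure D1:**
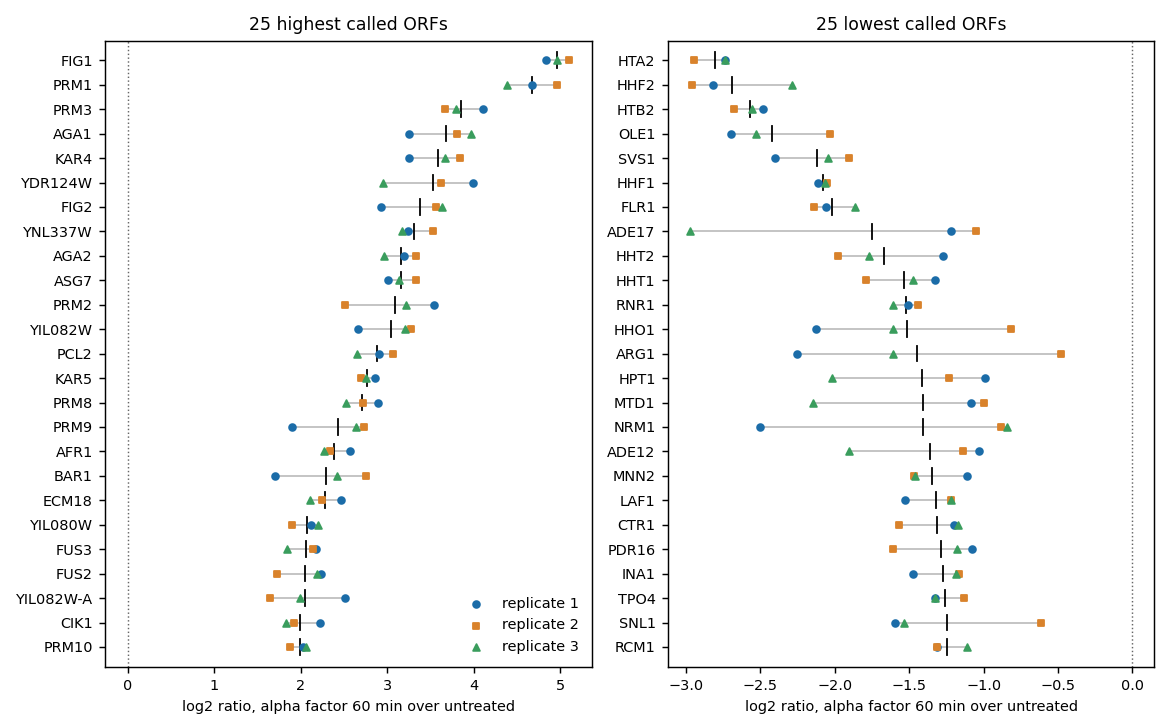
The 25 ORFs with the highest and the 25 with the lowest mean among called ORFs with the same sign on all 3 arrays, as log2 ratio of alpha factor over untreated cells (x axis). Points are the 3 arrays, vertical ticks their means and grey lines their ranges; most highest ORFs had tight points, while ADE17, HHO1, ARG1, MTD1 and NRM1 among the lowest were spread out.

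Genes that sense the pheromone rose at both ends of the pathway and little in the middle. The receptor gene STE2 stood at 0.84, 1.27 and 1.20 on replicates 1, 2 and 3 (mean 1.10 ± 0.234, SD, n = 3; 2.15-fold; adjusted p = 3.84e-06 by limma). GPA1, the G alpha subunit that holds the pathway off at rest, had 1.24, 0.97 and 1.23 (2.21-fold; adjusted p = 1.64e-06). All 3 arrays were above 0.8 for both genes. STE18, the G gamma subunit, rose by 0.69 ± 0.159 (adjusted p = 0.0017), whereas its partner STE4, the G beta subunit, was at 0.12 ± 0.21 (adjusted p = 0.26). The kinase and scaffold genes between the G protein and the MAP kinases, STE20, STE50, STE5, STE11 and STE7, lay between 0.03 and 0.23 and none was called. The MAP kinase gene FUS3 was at 2.18, 2.15 and 1.84 (4.16-fold; adjusted p = 2e-09), and its relative KSS1 rose less, by 0.73 ± 0.0636 (1.66-fold). FAR1, the inhibitor of the G1 cyclin kinase and guide of the projection, had 2.04, 1.85 and 1.68 (3.62-fold; adjusted p = 1.11e-05). In the whole list 7 of 15 members rose (46.7%, against 16.3% of all ORFs) and 1, the polarity GTPase gene CDC42, fell. Of these, 6 rises held with each array left out, while CDC24 (0.20) lost its call without any one of the arrays (adjusted p = 0.0756 to 0.116) and CDC42 (−0.36) lost it without replicate 2 (adjusted p = 0.187).

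Transcription factors of the response rose in 4 of 8 cases (50%, against 16.3% of all ORFs) and none fell. The 4 rises held with each array left out. MCM1, the cofactor of Ste12, was at −0.36, 0.23 and −0.36 with no call, and was called lower without replicate 2 (−0.36; adjusted p = 0.0188). KAR4, which works with Ste12 at nuclear fusion genes, stood at 3.26, 3.84 and 3.67 (12-fold; adjusted p = 1.29e-10). TEC1, the Ste12 partner of filamentous growth, was at 1.78, 1.78 and 1.49 (3.21-fold; adjusted p = 3.94e-07). STE12 itself rose by 0.58 ± 0.156 (1.5-fold; adjusted p = 0.000225), less than either of them. The paired inhibitors of Ste12 differed: DIG2 rose by 1.15 ± 0.0575 (2.22-fold), and DIG1 was at −0.19 ± 0.131 with no call (adjusted p = 0.0991).

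Genes that end or damp the signal rose too. BAR1, the secreted protease that cuts alpha factor, had 1.71, 2.76 and 2.42 (4.9-fold; adjusted p = 1.31e-07), with replicate 1 well below the others. SST2, which speeds GTP hydrolysis by Gpa1, was at 1.72, 1.61 and 1.58 (3.11-fold; adjusted p = 4.96e-09). AFR1, which acts on the receptor and on the shape of the projection, was at 2.57, 2.33 and 2.27 (5.24-fold). These 3 genes were higher on every array. ASG7, an a-specific inhibitor of signalling, stood at 3.005, 3.33 and 3.14 (8.94-fold), and MSG5, a phosphatase of Fus3, rose by 0.63 ± 0.0445 (1.55-fold). The other phosphatase and kinase genes of this list, PTP2, PTP3, YCK1 and YCK2, lay between −0.12 and −0.09 with no call, as did AKR1 and HSL7 at 0.06 and 0.07. In all, 5 of 11 members rose (45.5%, against 16.3% of all ORFs) and the same 5 did so with each array left out.

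The a cells also raised genes for their own pheromone. MFA1 and MFA2 both encode a-factor. MFA1 had 1.45, 1.57 and 1.57 (2.89-fold; adjusted p = 3.63e-05), and MFA2 had 1.32, 1.22 and 0.70 (2.12-fold; adjusted p = 0.00109). Replicate 3 was the lowest for MFA2 and not for MFA1. STE6, the exporter of a-factor, rose by 0.66 ± 0.168, the methyltransferase gene STE14 by 0.65 ± 0.0687 and the protease gene STE24 by 0.43 ± 0.0598. The farnesyltransferase subunit gene RAM1 and the protease genes AXL1 and STE23 lay between 0.00 and 0.07 with no call. RAM2, the other farnesyltransferase subunit, rose by 0.26 but lost the call without replicate 2 or 3 (adjusted p = 0.0574 and 0.0727). RCE1, another protease gene of this pathway, was called lower at −0.52 and lost the call without replicate 1 or 3 (adjusted p = 0.051 and 0.0513).

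Markers of cell identity were checked against the label of a cells. All 7 a-cell markers rose (MFA1, MFA2, STE2, STE6, BAR1, AGA2 and ASG7) and kept the call with each array left out, which shows that these genes were measured and changed but not how pure the culture was, since a ratio gives no level. Of 3 alpha-cell markers with values, STE3, the a-factor receptor gene, was at 0.21, 0.08 and 0.13 with no call (adjusted p = 0.189). SAG1, the alpha-agglutinin gene, rose by 0.54 ± 0.276 (1.45-fold; adjusted p = 0.00144), and MF(ALPHA)2 rose by 0.39 ± 0.187 and lost the call without replicate 1 (adjusted p = 0.125). MF(ALPHA)1 had too few values to be tested. Whether cells of another type contributed to these ratios was not tested. Of 12 meiotic genes tested 6 rose (50%, against 16.3% of all ORFs) and none fell, and 3 of the rises held with each array left out. These were IME4, an RNA methyltransferase subunit, at 1.83, 1.482 and 1.67 (3.16-fold; adjusted p = 4.46e-08), SPO11 at 0.70 ± 0.0118 and HOP1 at 0.44. IME4 has an antisense partner, RME2, in the reference gene table (assembly R64), and the strand measured by the probe was not given in the sources used here, so their transcripts cannot be told apart. The main regulators of meiosis IME1, IME2 and NDT80 were at 0.23, −0.01 and 0.03, and the call of IME1 was lost without any one array (adjusted p = 0.0696 to 0.235).

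Genes for adhesion and cell fusion had the highest ratios measured. FIG1, a membrane protein of the calcium influx during mating, was at 4.83, 5.10 and 4.96, a mean of 4.97 ± 0.136 (31.2-fold; adjusted p = 1.56e-12). PRM1, which acts when the plasma membranes of the partners fuse, was at 4.67, 4.96 and 4.38 (25.4-fold; adjusted p = 2e-09). No other ORF reached 4 on average. AGA1, the anchor of the a-agglutinin, had 3.25, 3.803 and 3.97 (12.8-fold; adjusted p = 2.34e-08), AGA2, its binding subunit, had 3.20, 3.33 and 2.96 (8.96-fold), and the adhesin gene FIG2 had 2.93, 3.57 and 3.63 (10.4-fold). All 3 genes lay near or above 3 on each array, while FLO5, a flocculin of vegetative cells, was at −0.04 and FLO10 at 0.42, neither called. FLO9 at 0.30 lost its call without replicate 1 or 2 (adjusted p = 0.119 and 0.108).

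Among genes of the fusion zone, FUS2, a cytoplasmic fusion regulator, stood at 2.24, 1.73 and 2.18 (4.14-fold; adjusted p = 1.67e-06), and RVS161, the amphiphysin-like partner of Fus2, at 1.44, 1.86 and 1.74 (3.21-fold). FUS1, often used as a reporter of the pathway, had 1.26, 1.64 and 1.60, a mean of 1.499 ± 0.21 (2.83-fold; adjusted p = 3e-06), so it ranked well below FIG1 and PRM1. In the cell fusion list 9 of 14 rose (64.3%, against 16.3% of all ORFs), of which 8 held with each array left out. The chitin synthase gene CHS3 at −0.31 and the protease gene KEX2 at −0.30 were called lower, and both lost the call without replicate 2 or 3 (CHS3 adjusted p = 0.174 and 0.148, KEX2 adjusted p = 0.274 and 0.093).

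The PRM genes, named as pheromone-regulated membrane proteins, split 9 to 1. PRM3, which acts at the nuclear envelope, had 4.10, 3.67 and 3.79 (14.5-fold), PRM2 had 3.54, 2.51 and 3.21 (8.51-fold) and PRM8 had 2.89, 2.72 and 2.52 (6.55-fold). PRM9, PRM10, PRM4, PRM6 and PRM5 followed with means of 2.43, 1.99, 1.94, 1.75 and 1.75. The exception was PRM7, at −1.28, −1.31 and −0.91 (mean −1.17 ± 0.222; 2.25-fold lower; adjusted p = 1.68e-05). All 10 kept their call with each array left out.

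Nuclear fusion genes were divided. KAR5, needed for fusion of the nuclear membranes, was at 2.85, 2.69 and 2.75 (6.81-fold; adjusted p = 3.5e-09). CIK1 had 2.22, 1.92 and 1.83 (3.97-fold) and KAR3, the kinesin that pairs with Cik1 to pull the nuclei together, had 1.85, 1.53 and 1.86 (3.36-fold). VIK1, which pairs with Kar3 in vegetative cells, was at −0.21 ± 0.144 with no call (adjusted p = 0.158). JEM1, a DnaJ protein of the endoplasmic reticulum needed for karyogamy, went the other way with −0.81, −1.37 and −1.24 (2.2-fold lower; adjusted p = 2.87e-06), and CIN2, a tubulin folding factor, fell by 0.46 ± 0.136. KAR2, the chaperone that Jem1 works with, was at −0.06 ± 0.114. In all 7 of 18 rose (38.9%) and 2 fell (11.1%), against 16.3% and 17.3% of all ORFs. Of these, 5 rises and both falls held when each array was left out. The rises that were lost were KAR1 at 0.63, without replicate 2 (adjusted p = 0.0866), and BIM1 at 0.26, without any one array (adjusted p = 0.0542 to 0.235).

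**Figure D2:**
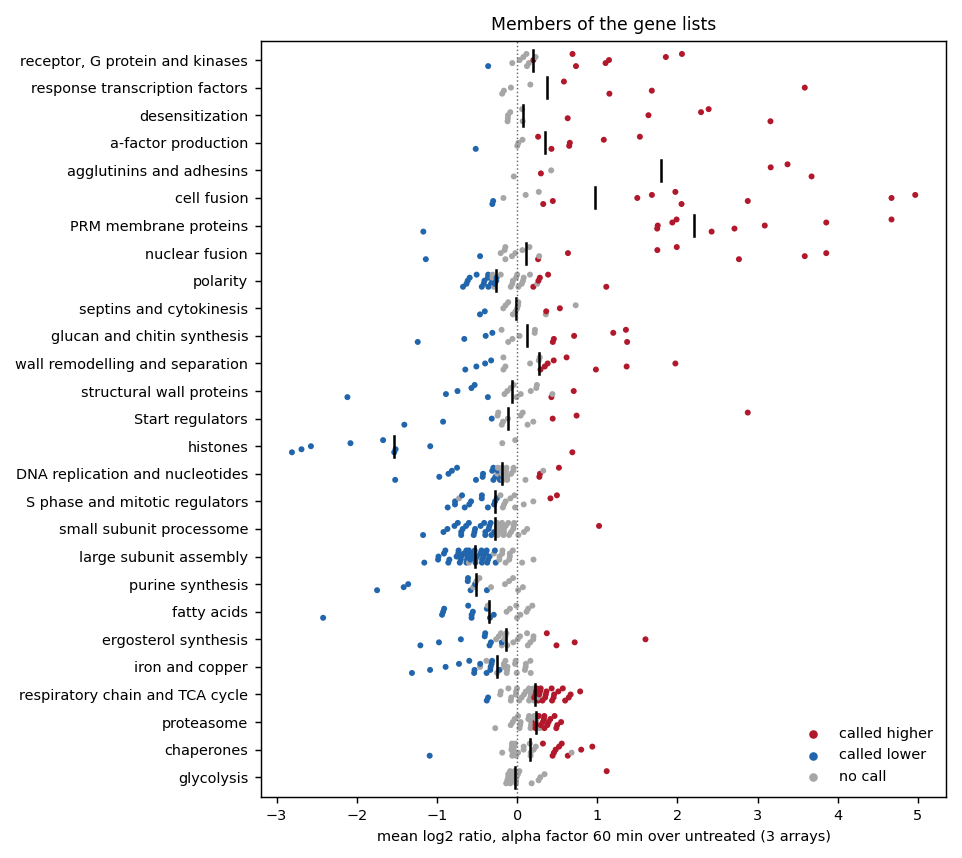
Mean log2 ratio (x axis, alpha factor over untreated cells, 3 arrays) of every tested member of 27 gene lists, 1 row per list; red points were called higher, blue lower and grey not called, and black ticks are list medians. The cell fusion and PRM lists extended beyond 4, while histones and the large subunit assembly list lay mainly below 0.

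Polarity genes fell more often than they rose. Of 36 tested 5 (13.9%) rose and 16 (44.4%) fell, against 16.3% and 17.3% of all ORFs. Of these, 1 rise and 5 falls held with each array left out, and the list median was −0.26. The only member called with a change of at least 2-fold rose: RDI1 had 1.28, 0.71 and 1.35 (2.16-fold; adjusted p = 2.95e-05 by limma). BNI1, the formin that nucleates actin cables, fell by 0.62 ± 0.231 (1.53-fold lower; adjusted p = 0.000441). GIC1, a Cdc42 effector, was at −1.20, −0.16 and −0.53, and its call was lost without replicate 1 (adjusted p = 0.0599). The range over the arrays was wider than the mean of GIC1 itself.

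Genes of cell wall synthesis moved in both directions. The chitin synthase gene CHS1 had 1.37, 1.37 and 1.33 (2.56-fold; adjusted p = 2.77e-05), and GFA1, which makes the precursor of chitin, had 1.21, 1.52 and 1.39 (2.59-fold; adjusted p = 1.33e-06). CHS7, needed for export of chitin synthase III, rose by 0.71 ± 0.113 and its activator SKT5 by 0.45. KRE6, of beta-glucan synthesis, had 1.16, 1.34 and 1.10 (2.3-fold; adjusted p = 1.6e-06). FKS1, the main glucan synthase subunit of growing cells, was at −1.24, −1.22 and −1.25 (2.36-fold lower; adjusted p = 0.000524), the smallest SD (0.0154) among the 140 ORFs called with a change of at least 2-fold. Its inducible relative GSC2 was at 0.02, −0.60 and 0.00 with no call (adjusted p = 0.261). In this list of 16 tested members 6 rose (37.5%) and 4 fell (25%), against 16.3% and 17.3% of all ORFs. The 6 rises and 2 of the 4 falls, FKS1 and KNH1, held with each array left out.

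Enzymes that loosen the wall or separate cells rose in 8 of 18 cases (44.4%) and fell in 4 (22.2%), against 16.3% and 17.3% of all ORFs. Of these, 5 rises and 1 fall held with each array left out. SCW11, a glucanase-like wall protein, stood at 1.89, 2.09 and 1.94 (3.93-fold; adjusted p = 2.28e-09). AMN1 and DSE1, both known from daughter cells after division, were at 1.37 ± 0.362 and 0.98 ± 0.129, the glucanase gene EXG1 at 0.62 and the chitinase gene CTS1 at 0.46. The 4 falls were those of GAS3 at −0.65, EGT2 at −0.51, UTR2 at −0.399 and GAS5 at −0.32, and the list had 1 lower call without replicate 3. Of 18 structural wall protein genes 2 were called higher, 6 (33.3%) lower and 10 neither way, against 17.3% of all ORFs called lower. Their median was −0.06, and 0.0061 without replicate 1. SVS1, a wall protein gene, had −2.40, −1.90 and −2.05 (4.34-fold lower; adjusted p = 4.19e-07), and TIR2, TIP1 and TIR3 of the mannoprotein family fell by 0.74, 0.57 and 0.53. The falls of SVS1, TIR2, TIP1 and TIR3 held with each array left out. The wall gene TOS6 had values of −2.74 and −1.55 on replicates 1 and 3 alone.

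Regulators of Start, the commitment to division in G1, did not move as a group: of 15 tested 3 rose (20%) and 3 fell (20%), against 16.3% and 17.3% of all ORFs. PCL2, a cyclin of the Pho85 kinase, had 2.90, 3.07 and 2.66 (7.34-fold; adjusted p = 1.71e-07). CLN3, the most upstream G1 cyclin, rose by 0.74 ± 0.11 (1.67-fold; adjusted p = 0.000111), and PCL9 by 0.44. CLN1 was at −1.22, −0.85 and −0.70 (1.9-fold lower; adjusted p = 3.07e-05), while its close relative CLN2 was at −0.01, 0.12 and 0.02 with no call (adjusted p = 0.673). NRM1, a repressor of G1 genes, had −2.50, −0.88 and −0.84 (2.65-fold lower; adjusted p = 0.00334), so replicate 1 set its mean, though the call held without it. SWI4, a transcription factor of G1 genes, fell by 0.32 and lost the call without replicate 2 (adjusted p = 0.0523). YOX1 and YHP1, repressors of early cell cycle genes that were picked after their values were seen, were at −1.11 ± 0.681 and −1.11 ± 0.385.

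The replication-dependent histone genes HTA2, HHF2 and HTB2 had the lowest means of all called ORFs. HTA2, an H2A gene, was at −2.74, −2.95 and −2.74 (7.01-fold lower; adjusted p = 2.34e-07), and HTB2, the H2B gene beside it, at −2.48, −2.68 and −2.55 (5.95-fold lower; adjusted p = 1.02e-07). The H4 gene HHF2 had −2.82, −2.96 and −2.29 (6.45-fold lower), HHF1 had −2.12, −2.06 and −2.07 (4.23-fold lower), and the H3 genes HHT2 and HHT1 had means of −1.67 ± 0.363 and −1.53 ± 0.237. On no array did any of these 6 genes lie above −1.2. The second pair of H2A and H2B genes behaved differently: HTA1 was at −0.09, 0.02 and 0.01 (adjusted p = 0.847) and HTB1 at −0.22, −0.19 and −0.15 (adjusted p = 0.108), neither called. HTA1 and HTA2 differ little in coding sequence, as do HTB1 and HTB2, so their probes may share signal, which was not tested. The linker histone gene HHO1 had −2.13, −0.82 and −1.61 (2.86-fold lower), and HTZ1, the variant H2A gene, fell by 1.08 ± 0.128. CSE4, the centromeric H3 variant, was the only member called higher, at 0.58, 1.004 and 0.48, and lost the call without replicate 2 (adjusted p = 0.116). The 8 falls of 11 members (72.7%, against 17.3% of all ORFs) held with each array left out. Fewer cells in S phase and less histone RNA per cell cannot be told apart in RNA from whole cultures, and this holds for the other cell cycle genes as well.

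**Figure D3:**
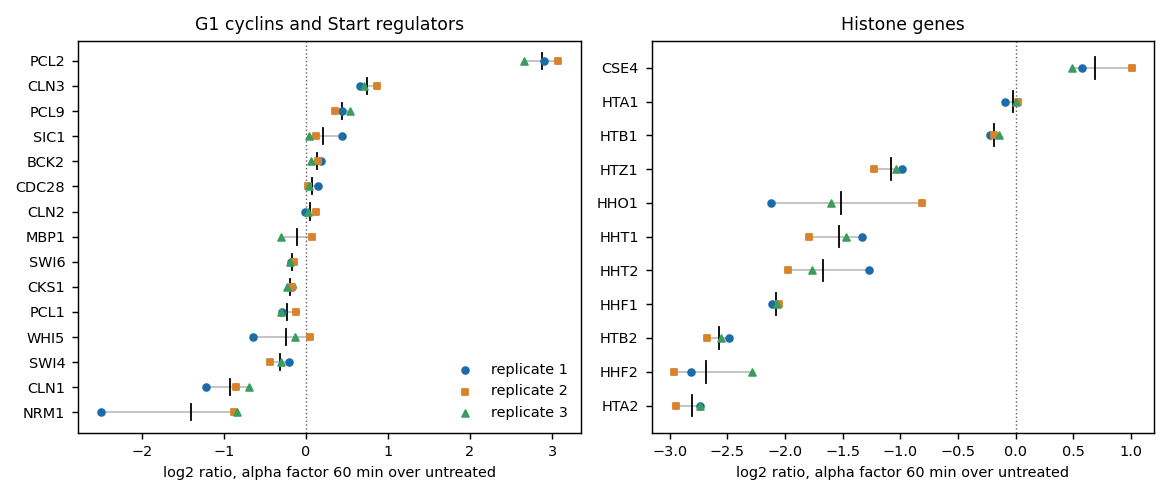
Log2 ratio (x axis, alpha factor over untreated cells) of G1 cyclins and Start regulators (left) and histone genes (right) on each array, with ticks at the means. PCL2 lay near 3 on every array, CLN1 and NRM1 below 0, and 8 histone genes below 0 while HTA1 and HTB1 stayed between −0.22 and 0.02.

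Further genes of S phase and mitosis fell by less. In the list of S phase and mitotic regulators 13 of 25 fell (52%) and 2 rose (8%), against 17.3% and 16.3% of all ORFs. Of these, 8 falls and 2 rises held, and the median was −0.28. NDD1, a coactivator of mitotic genes, had −0.74, −1.12 and −0.74 (1.82-fold lower; adjusted p = 0.00239). The S phase cyclin genes CLB5 and CLB6 fell by 0.65 ± 0.235 and 0.77 ± 0.62, and PDS1, the securin gene, by 0.78 ± 0.382. CLB6 was at −1.49 on replicate 1 and at −0.42 and −0.41 on the others. In DNA replication and nucleotide supply 15 of 35 fell (42.9%) and 3 rose (8.57%), of which 7 falls and no rise held. RNR1, the large subunit of ribonucleotide reductase, had −1.51, −1.44 and −1.61 (2.87-fold lower; adjusted p = 6.74e-09), and RNR3, its damage-inducible relative, had −1.08, −1.10 and −0.73 (1.96-fold lower). RAD27, the flap nuclease of lagging strand synthesis, fell by 0.86 ± 0.339, and CDC21, thymidylate synthase, by 0.81 ± 0.266. Of 9 cohesin genes only MCD1, the cleavable subunit, and PDS5, a regulator on chromatin, were called (22.2%, against 33.6% of all ORFs called either way). Both fell, MCD1 with −1.41, −0.68 and −1.26 (2.17-fold lower) and PDS5 with −1.50, −0.58 and −0.93 (2-fold lower), while the core subunit genes SMC1 and SMC3 were at −0.06 and 0.09. Replicate 2 was the least negative for both.

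Factors that assemble ribosomes were called lower far more often than higher, whereas genes of RNA polymerase I moved both ways. Of 52 factors that assemble the large subunit 39 (75%) were called lower and none higher, 29 of them with each array left out, with a median of −0.52. NIP7 had −0.91, −1.29 and −1.27 (2.23-fold lower; adjusted p = 2.23e-06), the helicase gene DBP2 had −0.79, −1.07 and −1.09 (1.98-fold lower) and ERB1 had −0.89, −1.16 and −0.90 (1.97-fold lower). RCM1, a methyltransferase of large subunit RNA, had −1.31, −1.31 and −1.11 (2.37-fold lower; adjusted p = 2.54e-07). Of 44 factors of the small subunit processome 22 (50%) fell, 16 of them with each array left out, with a median of −0.27. ECM16, a helicase, had −1.06, −1.21 and −1.25 (2.25-fold lower; adjusted p = 4.55e-07). UTP7 alone of these 44 rose, with 1.07, 1.17 and 0.83 (2.03-fold; adjusted p = 1.02e-05). RNA polymerase I and its initiation factors transcribe the ribosomal RNA genes. Of 14 of their genes 3 (21.4%) were called higher and 4 (28.6%) lower, against 16.3% and 17.3% of all ORFs. Of these calls 1 rise and 3 falls held, and the median was −0.05. The subunit gene RPA49 fell by 0.61 and RPA190 by 0.48, while RPA14 rose by 0.68. Of 65 mitochondrial ribosomal protein genes 9 (13.8%) were called higher and 5 (7.69%) lower, with a median of 0.08. Both shares were below the 16.3% and 17.3% of all ORFs. Leaving out replicate 1, 2 or 3 gave 3, 1 and 2 higher calls, and none of the 9 rises and 2 of the 5 falls held throughout.

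Purine genes fell, by an amount that depended on the array. ADE17, an enzyme late in the purine pathway, had −1.22, −1.05 and −2.97, and its call (adjusted p = 0.0129) was lost without replicate 3 (mean −1.14; adjusted p = 0.141). ADE12, of AMP synthesis, had −1.03, −1.14 and −1.91 and likewise lost its call without replicate 3 (adjusted p = 0.123), as did MTD1, a folate dehydrogenase, with −1.09, −0.998 and −2.15 (adjusted p = 0.0629). In each of these genes replicate 3 was the lowest by more than 0.7. HPT1, which salvages guanine and hypoxanthine, had −0.99, −1.23 and −2.02 (2.67-fold lower; adjusted p = 0.0048) and kept its call. SHM2, the cytosolic serine hydroxymethyltransferase, had −0.40, −0.44 and −1.85 and ADE13 had −0.03, −0.29 and −1.20, neither called (adjusted p = 0.108 and 0.246). Over the 17 purine genes the median was −0.43, −0.30 and −0.61 on replicates 1, 2 and 3, and 10 were lowest on replicate 3. In all 8 of 17 were called lower (47.1%, against 17.3% of all ORFs) and none higher. Without replicate 3 there were 4 lower calls. ADE57 was not among these 17 and was picked after its value was seen. It had −0.84, −0.68 and −1.60 (adjusted p = 0.0301 by limma). The fall of HPT1, of the adenine salvage gene APT1 (0.61 ± 0.0509) and of the IMP dehydrogenase genes IMD3 (0.58 ± 0.0393) and IMD4 (0.52) held with each array left out. Among genes of folate and glycine metabolism 4 of 17 were called lower (23.5%, against 17.3% of all ORFs). FOL1, of folate synthesis, was the sole call to hold with each array left out.

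**Figure D4:**
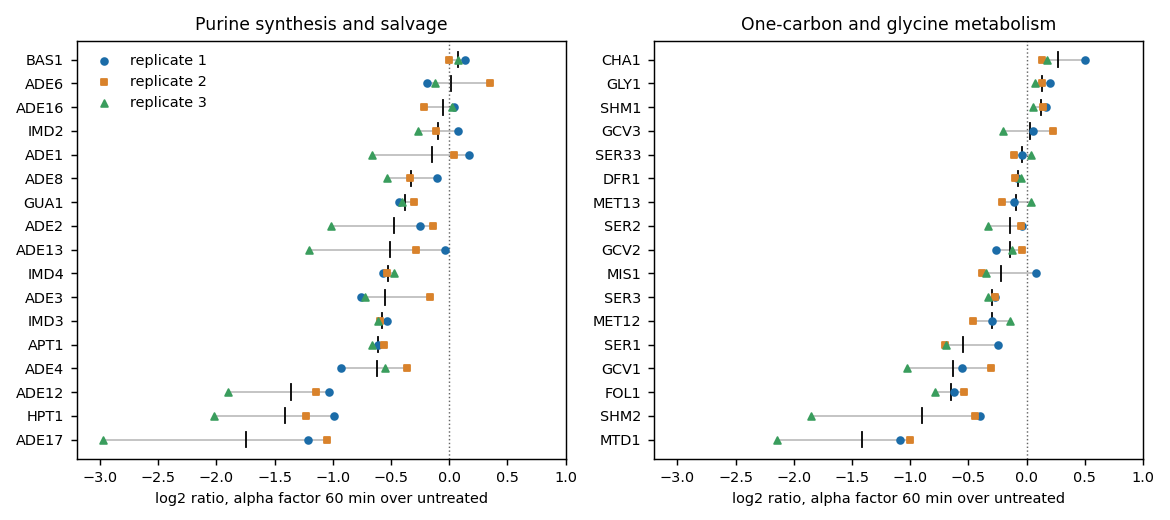
Log2 ratio (x axis, alpha factor over untreated cells) of purine synthesis and salvage genes (left) and of folate and glycine genes (right) on each array, with ticks at the means. Replicate 3 (green triangles) lay far left of the others for ADE17, HPT1, ADE12, MTD1 and SHM2, and close to them for APT1, IMD3 and SHM1.

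Of 20 fatty acid genes 11 fell (55%, against 17.3% of all ORFs), none rose and 9 had no call. With each array left out 9 of the falls held. OLE1, the fatty acid desaturase, had −2.70, −2.04 and −2.53 (5.35-fold lower; adjusted p = 2.34e-07), the lowest mean outside the histones. The elongase genes ELO1 and ELO3 had means of −0.94 ± 0.131 and −0.92 ± 0.249, and FAA4, which activates imported fatty acids, had −1.08, −0.78 and −0.88 (1.88-fold lower). FAS1, a subunit of fatty acid synthase, fell by 0.61 ± 0.0797 and ACC1, acetyl-CoA carboxylase, by 0.57 ± 0.177. The ergosterol list was mixed, with 4 of 28 (14.3%) higher and 8 (28.6%) lower, against 16.3% and 17.3% of all ORFs. Leaving out replicate 1, 2 or 3 gave 4, 6 and 5 lower calls, and 3 rises and 3 falls held throughout. ERG3, a sterol desaturase, had −1.34, −1.12 and −1.17 (2.31-fold lower; adjusted p = 1.82e-06) and ERG11, the lanosterol demethylase, had −1.01, −1.13 and −0.79 (1.97-fold lower). UPC2, a transcription factor that activates sterol genes, rose, with 1.59, 1.87 and 1.34 (3.03-fold; adjusted p = 9.93e-07). In the same list ERG28 and ERG20 rose as well, by 0.72 and 0.49 (adjusted p = 0.0017 and 0.000146 by limma). Thus UPC2 moved against some genes of the ergosterol list and with others.

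Metal and phosphate genes were called lower more often than higher. Of 31 iron and copper genes 14 (45.2%, against 17.3% of all ORFs) were called lower and none higher, with 10 held. CTR1, the high-affinity copper transporter, had −1.20, −1.57 and −1.17 (2.48-fold lower; adjusted p = 1.25e-05), FET4, a low-affinity metal transporter, had −1.43, −0.91 and −0.93 (2.12-fold lower), and the reductase gene FRE1 had −0.98, −0.86 and −0.84 (1.86-fold lower). FIT1, a wall mannoprotein of iron retention, fell by 0.73 and the iron permease gene FTR1 by 0.60, whereas the regulator genes AFT1 and AFT2, which control many of these genes, were at −0.17 and 0.17 with no call. ZRT1, the high-affinity zinc transporter, fell too, by 1.11 ± 0.0767, and was picked after its value was seen. In the phosphate list 6 of 23 fell (26.1%, against 17.3% of all ORFs) and 1 rose, with 4 falls held. PHO84, the high-affinity phosphate transporter, had −1.07, −1.27 and −1.13 (2.23-fold lower; adjusted p = 1.18e-07) and VTC3, of polyphosphate synthesis, had −0.79, −1.07 and −0.83 (1.86-fold lower), while the phosphatase gene PHO5 was at −0.09.

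In the secretory pathway 9 of 30 mannosyltransferase and related genes fell (30%, against 17.3% of all ORFs) and 1 rose, with 5 and 1 held. MNN2, which branches the mannan of wall proteins, had −1.11, −1.47 and −1.46 (2.54-fold lower; adjusted p = 1.02e-05), and MNN1, which caps the chains, fell by 0.79 ± 0.166. The drug transporter FLR1 was at −2.06, −2.14 and −1.86 (4.06-fold lower; adjusted p = 4.97e-09). The polyamine transporter TPO4 had −1.32, −1.13 and −1.32 (2.39-fold lower). ARG1, of arginine synthesis, had −2.25, −0.48 and −1.61, a fall (2.73-fold lower; adjusted p = 0.00243) whose size differed more than 1.5 log2 between replicates 1 and 2.

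Of 44 genes of the respiratory chain and TCA cycle 22 (50%) rose slightly, 2 (4.55%) fell and 20 had no call. Among all ORFs 16.3% were called higher and 17.3% lower. With each array left out 12 rises and none of the falls held, and the median of the 44 was 0.22. The Rieske protein gene RIP1 had 0.63, 1.13 and 0.59 (1.73-fold; adjusted p = 0.00158), QCR10 of the same complex had 0.77, 0.77 and 0.46 (1.59-fold) and aconitase, ACO1, had 0.64, 0.68 and 0.61 (1.56-fold). No member reached 2-fold. Glycolysis genes stayed near 0, between −0.14 and 0.34 for 19 of 20, and the exception was the minor pyruvate kinase PYK2 at 1.33, 0.71 and 1.31 (2.17-fold; adjusted p = 2.11e-05). Among hexose transporters HXT1 fell and HXT3 rose, by 0.76 ± 0.00396 and 0.75 ± 0.1995, and both calls held. GPD1, of glycerol synthesis, rose with 1.22, 1.36 and 1.11 (2.35-fold; adjusted p = 1.6e-06), whereas HOG1, the kinase of osmotic stress, fell by 0.68 ± 0.122.

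Proteasome genes rose in 16 of 33 cases (48.5%, against 16.3% of all ORFs) and none fell. Of these rises 6 held with each array left out, and the median was 0.23. The core subunit gene PRE4 had 0.45, 0.63 and 0.57 (1.46-fold; adjusted p = 0.000458) and PRE3 had 0.62, 0.25 and 0.62 (1.41-fold), while the proteasome activator gene RPN4 was at 0.03. Chaperone genes rose in 9 of 29 cases (31%) and 1 fell (3.45%), against 16.3% and 17.3% of all ORFs. Of these, 6 rises and 1 fall held with each array left out. STI1, a cochaperone of Hsp90, had 0.88, 1.02 and 0.92 (1.92-fold; adjusted p = 1.75e-06). CPR6, another partner of Hsp90, had 1.14, 0.25 and 1.004 (1.74-fold). HSP30, a stress-induced membrane protein, was the fall, with −0.87, −0.94 and −1.46 (2.13-fold lower). Among 14 genes used as stable references, PDA1 at 0.39 and the tubulin gene TUB1 at −0.30 were called, and TUB1 lost the call without replicate 3 (adjusted p = 0.0504). Actin, ACT1, was at 0.09, 0.04 and 0.12.

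Several other lists changed little or in both directions. Of 27 sulfur and methionine genes 9 rose (33.3%) and 2 fell (7.41%), against 16.3% and 17.3% of all ORFs. Of these, 1 rise and no fall held with each array left out. Of 18 calcium genes 4 rose and 4 fell (22.2% each), and FIG1 and the vacuolar exchanger gene VCX1 (−0.49) were the ones to hold. Of 14 septin and cytokinesis genes 2 rose and 2 fell (14.3% each). The septin genes CDC3, CDC10, CDC11 and CDC12 lay between −0.17 and 0.02 with no call. MET17, which BY4741 lacks before and after treatment, was still called at 0.47 ± 0.0609 (adjusted p = 0.00885). HIS3 and LEU2, in which it also carries deletions, were at −0.13 and 0.07 with no call. How much of HIS3 its deletion removes was not checked. What the probes of these genes bound was not tested.

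The ORFs with the largest changes sat next to each other in a few places. Of 5252 neighbouring pairs of tested ORFs in the reference gene table (assembly R64), 236 held at least 1 ORF called with a change of 2-fold or more, and in 14 both ORFs were. In 12 of these 14 both moved the same way, and 7 pairs were divergent, among them HTA2 and HTB2, HHF1 and HHT1, and HHT2 and HHF2. KAR4 shared its upstream region with the peroxisome gene PEX34 (1.26, 0.89 and 0.90), and PRM6 with the splicing gene PRP39 (1.16, 1.32 and 1.09). YDR124W, at 3.996, 3.62 and 2.95 (11.5-fold; adjusted p = 1.62e-07), converged on ECM18, at 2.47, 2.25 and 2.11 (4.84-fold). BAR1 lay beside the opposite case: SNL1, a factor of nuclear pore integrity, had −1.59, −0.61 and −1.54 (2.38-fold lower; adjusted p = 0.00145). Overlapping transcripts cannot be separated without the strand of the probes. Of the 140 ORFs, 12 were absent from that table, among them YNL337W at 3.31 ± 0.188, YIL082W at 3.05 ± 0.336 and YIL080W at 2.07 ± 0.157.

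The response of a cells to pure alpha factor in liquid was set against that of mixed a and alpha cells on filters, which differ in time, medium and cell types as well as in the source of pheromone. Of 3648 ORFs measured in both, 675 (18.5%) differed by limma at an adjusted p under 0.05, 304 (8.33%) with the higher and 371 (10.2%) with the lower ratio after alpha factor. FIG1 was the same within its error, at 4.83, 5.10 and 4.96 with alpha factor and 5.22, 4.85 and 4.84 in mating (difference −0.0053 ± 0.147, SE). Of the called ORFs with a value on every array and no overlap between the groups, SAG1 and STE3 had the lowest differences. Both are normally transcribed in alpha cells. XBP1 (−1.42), LIF1 (−1.41) and PRM7 came next. STE3 had 0.21, 0.08 and 0.13 with alpha factor, against 1.44, 1.72 and 1.73 in mating (difference −1.49; adjusted p = 1.01e-06). SAG1 had 0.66, 0.22 and 0.73 with alpha factor, against 2.64, 2.42 and 2.56 in mating (difference −2.0; adjusted p = 5.51e-07). PRM7 fell with alpha factor to a mean of −1.17, against 0.28, 0.15 and 0.27 in mating (difference −1.41; adjusted p = 7.28e-05). In the positive direction NCE103, carbonic anhydrase, had 0.75, 1.34 and 0.90 with alpha factor, against −1.19, −1.16 and −1.65 in mating (difference 2.33; adjusted p = 5.51e-07). Of the 25 highest ORFs 15 could be compared, and 4 differed: KAR5 (1.18), FIG2 (1.13), ECM18 (0.85) and CIK1 (0.81) were all higher with alpha factor. The 25 were chosen by their alpha factor means, which favours this direction in advance. HTA2 and HTB2 were at −2.81 and −2.57 with alpha factor and at −2.51 and −2.52 in mating, with no call of a difference.

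Treatment and time were matched in the other species, but probes of S. cerevisiae sequence may bind their RNA less well, which was not measured. Against S. paradoxus 807 of 4718 ORFs (17.1%) differed, 359 (7.61%) upward and 448 (9.5%) downward in S. cerevisiae. Against S. mikatae 546 of 4357 (12.5%) differed, 251 (5.76%) upward and 295 (6.77%) downward. FIG1, SST2 and AGA1 did not differ by call from S. paradoxus, with differences of −0.05 ± 0.15, 0.05 ± 0.109 and −0.14 ± 0.225 (SE). PRM3 had 4.10, 3.67 and 3.79 in S. cerevisiae, against 2.12, 1.81 and 2.48 in S. paradoxus (difference 1.72; adjusted p = 0.000123). BAR1 went the other way, with 1.71, 2.76 and 2.42 in S. cerevisiae, against 2.96, 3.34 and 3.16 in S. paradoxus (difference −0.86; adjusted p = 0.0116). SCW11 stood near 2 on each S. cerevisiae array, against 0.10, −0.05 and −0.15 in S. paradoxus (difference 2.01; adjusted p = 1.15e-07). ELO1 fell in S. cerevisiae, with −0.98, −1.04 and −0.79, against 2.22, 2.64 and 2.05 in S. paradoxus (difference −3.24; adjusted p = 1.15e-07).

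AGA1 set S. cerevisiae apart from S. mikatae, with 3.25, 3.803 and 3.97 in S. cerevisiae, against 0.58, −0.12, −0.18 and 0.39 in S. mikatae (difference 3.51; adjusted p = 1.09e-06). Of the 25 highest ORFs 14 could be compared with S. mikatae, and 10 differed, 6 of them higher in S. cerevisiae. Choosing the 25 by their S. cerevisiae means favours that direction in advance. FUS3 had 2.18, 2.15 and 1.84 in S. cerevisiae, against 1.11, 1.09, 1.27 and 1.30 in S. mikatae (difference 0.86; adjusted p = 0.000156). ASG7 had 3.005, 3.33 and 3.14 in S. cerevisiae, against 4.04, 4.89, 4.62 and 3.90 in S. mikatae (difference −1.21; adjusted p = 0.000881). KAR4, AFR1 and PRM10 were likewise lower in S. cerevisiae, by 0.74 to 0.98. OLE1 fell further in S. cerevisiae than in either relative, to −2.42, against −1.39 in S. paradoxus (difference −1.03; adjusted p = 0.00348) and −1.12 in S. mikatae (difference −1.30; adjusted p = 0.000537).

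**Figure D5:**
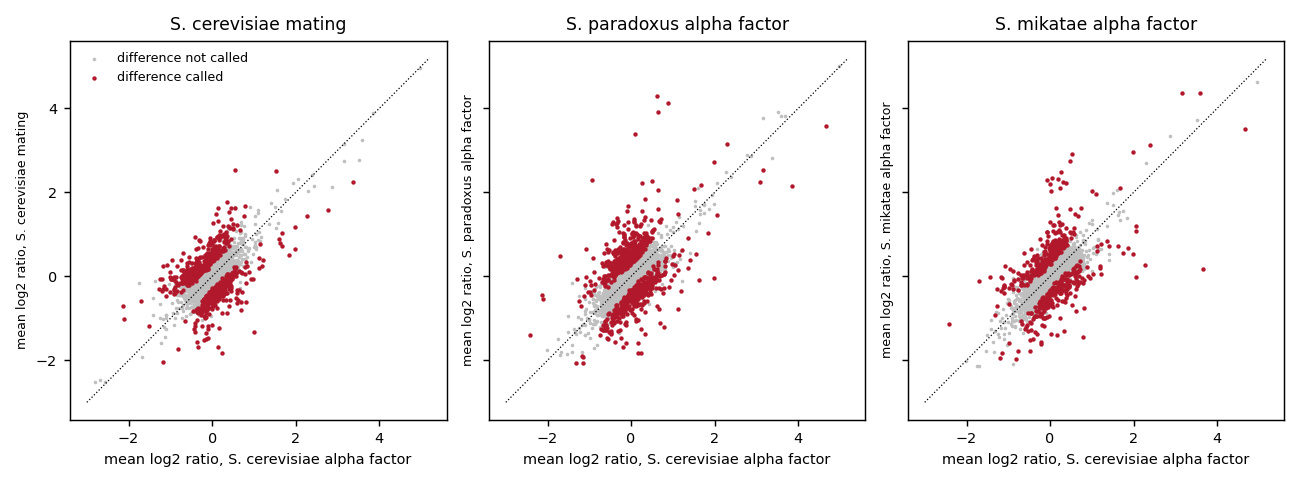
Mean log2 ratio of each ORF in S. cerevisiae a cells with alpha factor (x axis) against its mean in S. cerevisiae mating, S. paradoxus or S. mikatae (y axes, left to right), with red points for called differences and a dotted line of equality. FIG1 lay near the line at the top right of each panel, whereas other mating genes lay off it, such as AGA1 in S. mikatae (difference 3.51) and PRM3 in S. paradoxus (difference 1.72).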

How the data were processed

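RNA was measured on 2-colour S. cerevisiae cDNA arrays. The values are the authors' deposited log2 ratios, 1 per ORF and array, and were read as log2 of channel 1 (treated) over channel 2 (untreated). Their log base, centring and direction, and how spots were scanned, corrected for background and normalized, are not stated in the labels or the table. Array medians lay between −0.0024 and 0.0016 and were set to 0. Names came from the reference gene table of assembly R64. It matched 5653 of 6132 ORFs (43 only once a dash was inserted), and 479 kept their own name.

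All 13 arrays entered a single fit in limma 3.58.1 (R 4.3.3) with 1 mean per group. The S. cerevisiae mean, and its contrast with each other group, had moderated t tests for ORFs with at least 2 values per group, with Benjamini-Hochberg adjustment over all ORFs. The procedure was tested on simulated data. The main fit did not pair samples by replicate number. Deviations of the S. cerevisiae alpha factor arrays from their group mean were correlated with the deviations in the other groups. The 9 same-numbered pairs gave −0.139 to 0.334, and the 21 pairs with unlike numbers gave −0.336 to 0.378. These ranges cannot settle whether the numbers pair samples.

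The arrays, the 49 gene lists and the tests were chosen with earlier results of these data known. Named genes are the 25 highest and 25 lowest called ORFs with 1 sign on 3 arrays, all members of lists of up to 20 genes, up to 6 called and 3 uncalled members of longer lists, 5 ORFs each way per difference, and neighbours. Others were picked after their values were seen. Promoter and other sequences were not analysed here, and a few results are not reported here. Alternatives were uncentred values, a common spread for the arrays, quantile normalization, ORFs measured on every array, a fit without the other groups, weights per array, robust eBayes, an ordinary t test, a replicate block, a log2 change of at least 1, and leaving out each array.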

Additional observations from a re-analysis of the deposited data

Results flagged for a closer look

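The response of S. cerevisiae a cells to alpha factor differed, by limma's test of the difference, from mating for 675 ORFs, from S. paradoxus for 807 and from S. mikatae for 546. The ORFs with the highest and the lowest differences, all with adjusted p under 0.05 and arrays that did not overlap, follow as values, alpha factor in S. cerevisiae minus the other group.

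Against mating the differences were 2.33 for the carbonic anhydrase gene NCE103, 2.07 for the wall protein gene PIR1, 1.82 for ANS1, 1.41 for YNL058C and 1.39 for the peroxiredoxin gene TSA2. They were −1.405 for PRM7, −1.41 for the DNA repair gene LIF1, −1.42 for the repressor gene XBP1, −1.49 for STE3 and −2.0 for SAG1. The alpha factor arrays alone had no call for PIR1, ANS1, TSA2, LIF1, XBP1 and STE3, so for these genes the difference lay mainly in the mating arrays.

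Against S. paradoxus the differences were 2.06 for glutamine synthetase, GLN1, 2.01 for SCW11, 2.001 for CSS1, 1.99 for YLL053C and 1.91 for NFG1. They were −3.24 for ELO1, −3.256 for YCL076W, −3.26 for YCL075W, −3.29 for YAL069W and −3.68 for MAK32. The last 4 had means of 0.87, 0.64, 0.09 and 0.63 with alpha factor in S. cerevisiae, against 4.13, 3.905, 3.39 and 4.30 in S. paradoxus.

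Against S. mikatae the differences were 3.51 for AGA1, 2.25 for CSS1, 2.07 for YIL082W-A, 1.999 for ECM18 and 1.64 for the methionine synthase gene MET6. They were −2.22 for SKG6, −2.28 for APT2, −2.29 for YHR125W, −2.36 for YBL101WA and −2.39 for the dCMP deaminase gene DCD1. The S. cerevisiae means of these 5 were 0.26, 0.05, 0.47, −0.07 and 0.52, against 2.48, 2.34, 2.75, 2.29 and 2.91 in S. mikatae. Binding of S. cerevisiae probes by RNA of the other species was not measured.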

How the results depend on the processing

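Set against 1946 ORFs called, the count was 1943 to 2635 under centring, scaling, filter, array weight and robust alternatives, and 1714 in a fit of the S. cerevisiae alpha factor arrays alone, which shared 1594 calls with the 1946. No call of a named gene changed sign under any alternative. With the replicate block the counts were 1936 for the response and 610, 721 and 511 for the differences from mating, S. paradoxus and S. mikatae. What same-numbered samples share beyond the number was not established. By deviations from the group mean, 1 of 9 comparisons placed an S. cerevisiae array best with its own number. An ordinary t test without moderation called 15 ORFs (1631 at an unadjusted p under 0.05), and 240, 157 and 204 for the differences. A log2 change of at least 1 left 140, 57, 92 and 61. Array weights raised the difference from S. mikatae to 872. Leaving out 1 S. cerevisiae array gave 1126 to 1410 for the response, and 370 to 583, 481 to 646 and 316 to 412 for the differences, with fewer samples in each fit. Of the 140 ORFs changed at least 2-fold, none reversed under any alternative. The ordinary t test called 3 of them, the other fits that kept each array called 132 to 140, and 135 of 136 tested were called without replicate 1, 134 of 135 without replicate 2 and 129 of 133 without replicate 3. The number of arrays limits the precision, and signal over background was not available for these values.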

Other observations

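Outside the gene lists, several ORFs changed strongly in S. cerevisiae a cells with alpha factor, all picked after their values were seen. ALD6, the cytosolic aldehyde dehydrogenase that makes acetate, had 1.11, 2.20 and 2.21 (3.58-fold; adjusted p = 4.26e-06 by limma), with replicate 1 about 1 log2 unit below the others. HYM1, of the network that directs daughter cell gene expression, had 1.88, 1.5 and 1.51 (3.1-fold), and PGU1, a secreted pectinase, averaged 1.405 ± 0.199 (SD, n = 3; 2.65-fold). SUM1, a repressor of middle meiotic genes, had 1.11, 1.25 and 1.02 (2.18-fold; adjusted p = 4.46e-08), and ISC1, an inositol phosphosphingolipid phospholipase, had 1.20, 1.34 and 1.13 (2.33-fold).

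On the lower side PSF2, a subunit of the GINS replication complex, had −0.92, −1.45 and −1.26 (2.32-fold lower; adjusted p = 2.23e-06), and it converges on JEM1, which fell as well. IZH2, a membrane protein of zinc homeostasis, had −1.25, −1.003 and −1.33 (2.29-fold lower). ASP1, the cytosolic asparaginase, had a value on replicates 2 and 3 alone, at −1.55 and −1.87.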
